A study of Homo sapiens with 6 samples.

Results

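A set of 10 noncoding RNAs of known structure and function were followed in SEM, an established human B-cell precursor acute lymphoblastic leukemia (B-ALL) line: RN7SK, RN7SL1, RN7SL2, RMRP, RPPH1, TERC, RNU12, RNU4ATAC, MALAT1 and NEAT1. They were taken by gene symbol, 10 of the 57820 genes in the count and TPM tables, and each was found once. For each RNA, its part of a library's counts and of its TPM (transcripts per 1000000, which divides counts by transcript length) was compared between 3 CTCF-WT and 3 CTCF-dRBR libraries of total RNA.

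CTCF is the zinc finger protein that positions chromatin loops and domain boundaries, and the RBR is an RNA-binding region of CTCF. As the study's methods describe it, in both groups the cells' own CTCF carried a miniAID-mClover3 tag, through which 5-Ph-IAA triggers its degradation by way of the plant receptor OsTIR1 F74G, and doxycycline then switched on an HA-tagged CTCF, either whole (CTCF-WT) or without the RBR (CTCF-dRBR). Per the study's methods, 5-Ph-IAA was given for 24 h in all, 6 h of it before doxycycline, and doxycycline for 18 h at 1 µg/mL. The genotype label of the CTCF-WT libraries names CTCF-miniAID-mClover3 alone and that of the CTCF-dRBR libraries also names TRE3G-HA-CTCF-dRBR, so the groups were set by the library titles. Whether the 3 libraries of a group came from separate cultures was not given in the sources used here. The p-values therefore measure the spread between these libraries, which may be technical. Fits on TPM as deposited used a spread largely pooled over genes instead, as given below.

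Structural RNAs act as the scaffold or the catalytic core of a ribonucleoprotein rather than as templates for protein. RN7SK holds the elongation factor P-TEFb inactive together with LARP7, MEPCE and HEXIM proteins. RN7SL1 and RN7SL2 encode 7SL, the RNA of the signal recognition particle (SRP), which brings secretory and membrane proteins to the endoplasmic reticulum. RPPH1 is the RNA of RNase P, which trims the leading end of tRNA precursors, and RMRP is the RNA of the related RNase MRP, which cuts ribosomal RNA precursors. These 5 are made by RNA polymerase III. TERC carries the template that telomerase copies onto chromosome ends, RNU12 and RNU4ATAC are small nuclear RNAs (U12 and U4atac) of the minor spliceosome, and MALAT1 and NEAT1 are long nuclear RNAs, the first of nuclear speckles and the second the scaffold of paraspeckles. RNA polymerase II makes these last 5.

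The sequences of 2 of them are printed here. TERC is shown because its template is the part telomerase uses, and RNU4ATAC because it was the shortest member and the single one with a positive fold change. Both are read 5′ to 3′ from the GRCh37 genome as DNA letters. In TERC, capitals mark the template, with 40 bases on each side.
TERC: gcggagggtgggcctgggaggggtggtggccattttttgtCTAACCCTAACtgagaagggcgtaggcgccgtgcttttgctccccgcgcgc
RNU4ATAC: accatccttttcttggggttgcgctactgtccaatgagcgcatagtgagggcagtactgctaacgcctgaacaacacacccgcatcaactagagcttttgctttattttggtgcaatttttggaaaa
The TERC stretch is chr3:169482753-169482843 on the minus strand, and the template starts at position 46 of the annotated RNA and occurs in it once. RNU4ATAC is the 127-base interval chr2:122288457-122288583 on the plus strand, opposite to the gene CLASP1 and on the same strand as CLASP1-AS1.

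Other members lie at chr6:52860418-52860748 (RN7SK, plus strand), chr9:35657751-35658014 (RMRP, minus), chr14:20811207-20811844 (RPPH1, minus), chr22:43011250-43011913 (RNU12, plus), chr11:65265111-65275544 (MALAT1, plus) and chr11:65190245-65213011 (NEAT1, plus). The interval in Gencode 44 was longer than the mature RNA for some: 638 against 341 bases in RefSeq for RPPH1, 541 against 451 for TERC and 664 against 150 for RNU12. The deposited counts and TPM rest on Gencode 19, whose intervals were not available here, so these need not be the lengths used. A count of RNU12 carried 58.7 to 126 times the TPM of the median protein-coding gene, against 14.1 to 21.7 for RMRP. RNU12 thus entered TPM as shorter than RMRP. The overlaps and GC contents below rest on Gencode 44 too, with RN7SL1 placed by sequence. RN7SL1 overlaps RPS29 and RPPH1 overlaps PARP2 on the opposite strand, and there RNU12 overlaps CYB5R3 and MALAT1 overlaps TALAM1. RN7SL2 lies within the long noncoding RNA gene ENSG00000282885 on the same strand. The deposited tables are named as stranded, but the setting of the counting was not given in the sources used here. How far counts of overlapping pairs, on opposite strands or the same strand, were kept apart was not tested. GC content was 58.0% for RN7SK, 63.0% for both RN7SL genes, 63.3% for RMRP, 59.4% for RPPH1 and 66.7% for TERC, against 49.2% for RNU12, 45.7% for RNU4ATAC, 42.0% for MALAT1 and 44.1% for NEAT1. For RPPH1, TERC and RNU12 these values cover the longer Gencode 44 sequence, not the mature RNA alone. The same values were used wherever a GC trend was removed.

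Library totals ran from 30034505 expected counts, in CTCF-dRBR replicate 1, to 53166735, and the other libraries held at least 48912209. Libraries also differed in other ways, with values that overlapped between the groups. The Spearman correlation across genes between a gene's deviation from its mean and its GC content, given as a description over 13656 genes that share a library, was 0.704, 0.670 and 0.334 in CTCF-WT replicates 1 to 3 and -0.775, -0.415 and 0.504 in the CTCF-dRBR replicates in the same order. Of 8 markers of precursor B cells 7 reached 1 CPM (counts per 1000000 of the library), the exception being CD34, and their sum was 904 to 995 CPM in CTCF-WT and 607 to 1044 in CTCF-dRBR. All 4 T cell markers and all 4 erythroid markers stayed under 1 CPM, with sums of at most 0.599 and 0.0333, and the 4 myeloid markers summed to 10.6 to 11.4 in CTCF-WT and 10.2 to 10.8 in CTCF-dRBR, with LYZ and CD33 present and CD14 and MPO under 1. The part of GC, of depth and of single libraries in the results was not tested except by the refits named beside them.

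The 10 RNAs together held 13.2%, 10.6% and 6.29% of the counts in CTCF-WT replicates 1, 2 and 3, and 4.16%, 5.80% and 8.20% in CTCF-dRBR replicates 1, 2 and 3. The groups overlapped, since CTCF-dRBR replicate 3 lay above CTCF-WT replicate 3. The means were 10.02% ± 3.49 in CTCF-WT and 6.05% ± 2.03 in CTCF-dRBR (SD, n = 3 each), a difference of -3.96 percentage points with p = 0.2 by an exact two-sided permutation test, for which 0.1 is the smallest p that 3 against 3 libraries can give. The difference stayed negative with any 1 library left out, and was -2.37 points without CTCF-WT replicate 1. In bulk RNA, fewer cells with a transcript and less of it per cell cannot be told apart, and a share also moves when the rest of the library does. The 92 listed spike-ins had 0 counts, so no absolute scale could be set.

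In TPM the same RNAs took up far more of a library. Their sum was 42.0%, 37.2% and 26.2% of TPM in CTCF-WT replicates 1 to 3 and 19.02%, 25.7% and 30.5% in CTCF-dRBR replicates 1 to 3. The means were 35.2% ± 8.14 and 25.1% ± 5.78 (SD, n = 3 each), a difference of -10.1 percentage points (exact two-sided permutation p = 0.2), and -6.63 points without CTCF-WT replicate 1. The order of the libraries by count share and by TPM share was the same.

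**Figure D1:**
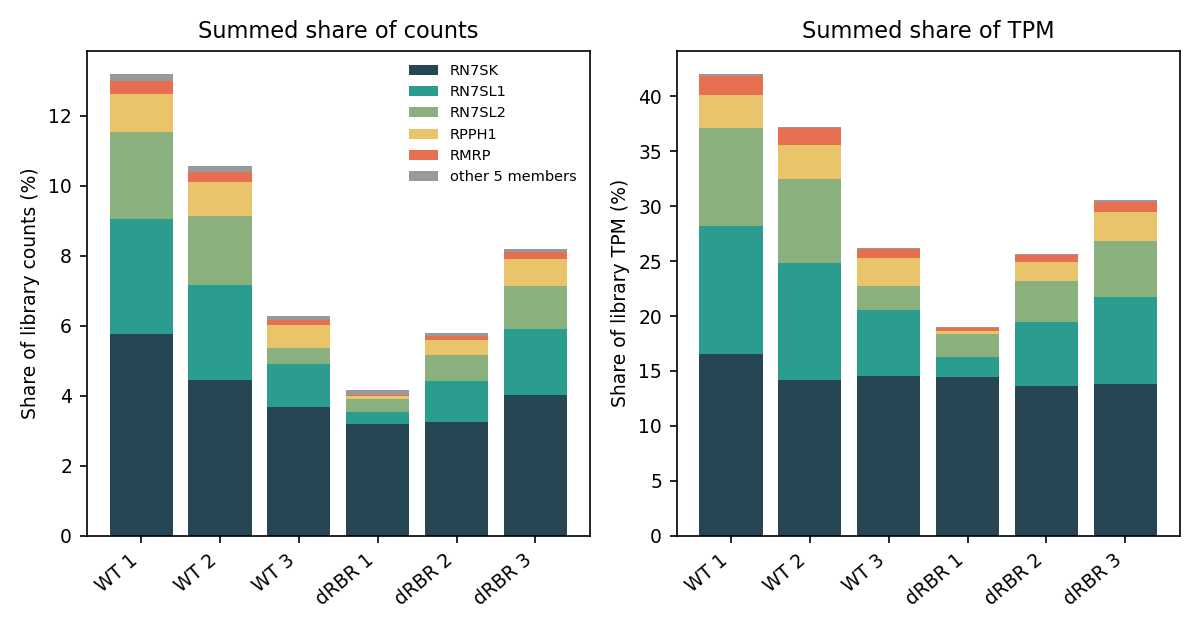
Stacked bars give the percent of each library's counts (left) and TPM (right) held by the 10 RNAs, with the 3 CTCF-WT (WT) and 3 CTCF-dRBR (dRBR) libraries by replicate number. The count bars reach 4.16% to 13.2% and the TPM bars 19.02% to 42.0%, nearly all of it from RN7SK, RN7SL1, RN7SL2, RPPH1 and RMRP, and CTCF-dRBR replicate 3 stands above CTCF-WT replicate 3 in both.

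Among the RNAs, RN7SK had the highest TPM in all 6 libraries. Its mean over the 6 was 145132 TPM, followed by RN7SL1 at 73112, RN7SL2 at 49533, RPPH1 at 22278, RMRP at 9876, RNU12 at 860, RNU4ATAC at 147, TERC at 132, MALAT1 at 125 and NEAT1 at 6.65. This order held in all 6 libraries between RN7SK and RN7SL1, RPPH1 and RMRP, RMRP and RNU12, RNU12 and RNU4ATAC, and MALAT1 and NEAT1. RN7SL1 exceeded RN7SL2 in 5 libraries and RN7SL2 exceeded RPPH1 in 5. RNU4ATAC, TERC and MALAT1 were not separated, with RNU4ATAC above TERC in 3 of 6 libraries and TERC above MALAT1 in 4. MALAT1 thus had a level per length like that of TERC, although its 10434 bases gathered more counts.

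How far a count counts in TPM differed widely between the RNAs. Relative to the median protein-coding gene of the same library, 1 count of RN7SK carried 9.51 to 13.4 times as much TPM, 1 count of RN7SL1 11.4 to 16.7 times, and 1 count of RMRP 14.1 to 21.7 times. The ratios were largest for the small spliceosomal RNAs, at 58.7 to 126 for RNU12 and 127 to 328 for RNU4ATAC, and below 1 for MALAT1 (0.304 to 0.350) and NEAT1 (0.197 to 0.644). For each of the 8 short RNAs, all but MALAT1 and NEAT1, the weight was lowest in CTCF-dRBR replicate 1 and highest in CTCF-WT replicate 1. A TPM difference between these libraries for a short RNA therefore held a difference in weight as well as one in counts. The mean weight of RNU4ATAC was 253 in CTCF-WT and 141 in CTCF-dRBR. NEAT1 shared this, with mean weights of 0.464 and 0.276 and its lowest weight in CTCF-dRBR replicate 1. For MALAT1 the means were 0.321 in CTCF-WT and 0.326 in CTCF-dRBR.

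**Figure D2:**
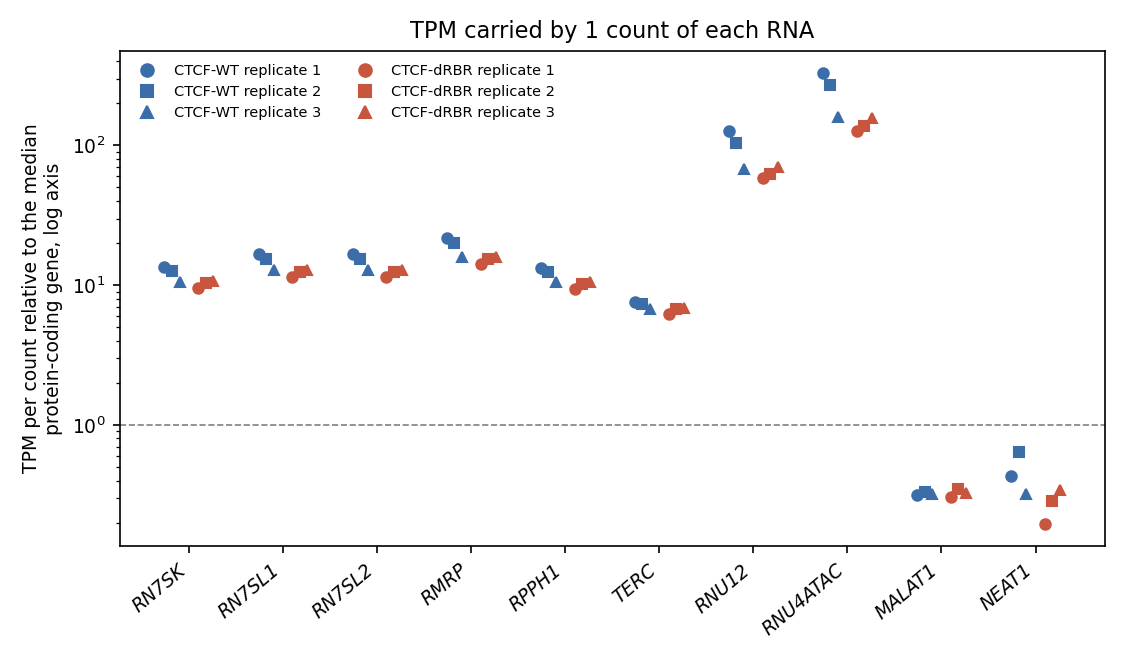
Each point is the TPM carried by 1 count of an RNA in 1 library, divided by the median of that ratio over well-counted protein-coding genes (dashed line at 1, log axis), with color for group and symbol for replicate. The 8 short RNAs lie above the line, from 6.25 for TERC to 328 for RNU4ATAC, MALAT1 and NEAT1 lie below it, and CTCF-WT replicate 1 is the highest for each short RNA.

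Because TPM sums to the same total in every library, the 8 short RNAs set how much was left for all other genes. That remainder was 58.0%, 62.8% and 73.8% in CTCF-WT replicates 1 to 3 and 81.0%, 74.3% and 69.5% in CTCF-dRBR replicates 1 to 3. On the log2 scale, the mean remainder was 0.21 higher in CTCF-dRBR. That offset is added to the fold change of every other gene on log2 TPM as it stands. On log2(TPM + 1) the added 1 makes the offset smaller for genes of low TPM. The median log2 fold change of all genes was 0.40 on log2(TPM + 1) and -0.01 on TMM-scaled counts, and 0.27 on TPM rescaled to leave out the 8 short RNAs.

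For MALAT1 the choice of scale turned the sign. It held 119, 107 and 131 TPM in the CTCF-WT replicates and 189, 123.4 and 81.9 TPM in the CTCF-dRBR replicates, and the log2(TPM + 1) fold change from limma-trend was 0.06, against -0.57 on counts. Rescaled without the 8 short RNAs, MALAT1 held 206, 171 and 178 against 233, 166 and 118 TPM, and the log2 fold change was -0.15. Neither scale gave a difference beyond the spread (adjusted p from 0.229 on counts to 0.929 on log2(TPM + 1), limma).

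For the test of each gene, counts were scaled to CPM with TMM factors, which adjust library totals by a trimmed mean of gene ratios, and fitted with limma-voom, and 14044 genes that reached 1 CPM in a library were tested, all 10 RNAs among them. None of the 10 passed an adjusted p of 0.05, where 0% of all genes did, and 1 of the 10, TERC, had an unadjusted p under 0.05, where 25.4% of all genes did. The log2 fold change of CTCF-dRBR over CTCF-WT was negative for 9 of the 10 and positive for RNU4ATAC, with a median of -0.76 over the 10 and -0.01 over all genes tested. The groups' CPM ranges overlapped for all 10 RNAs, while 20.0% of all genes were higher without overlap in CTCF-dRBR and 17.5% lower. In share of total counts, 1 of 10 was higher without overlap (background 21.6%) and 0 of 10 lower (background 14.5%). In share of TPM, 0 of 10 were higher (background 13.5%) and 2 of 10, TERC and RNU12, lower (background 2.32%).

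The order of the libraries recurred. CTCF-WT replicates 1 and 2 held the 2 highest shares of counts for 7 of the 10 RNAs, CTCF-dRBR replicate 1 held the lowest for 7, and CTCF-dRBR replicate 3 exceeded CTCF-WT replicate 3 for 9. RN7SK, RN7SL1, RMRP and RPPH1 ranked all 6 libraries alike. RNU4ATAC ran the other way, with its highest share in CTCF-dRBR replicate 1.

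**Figure D3:**
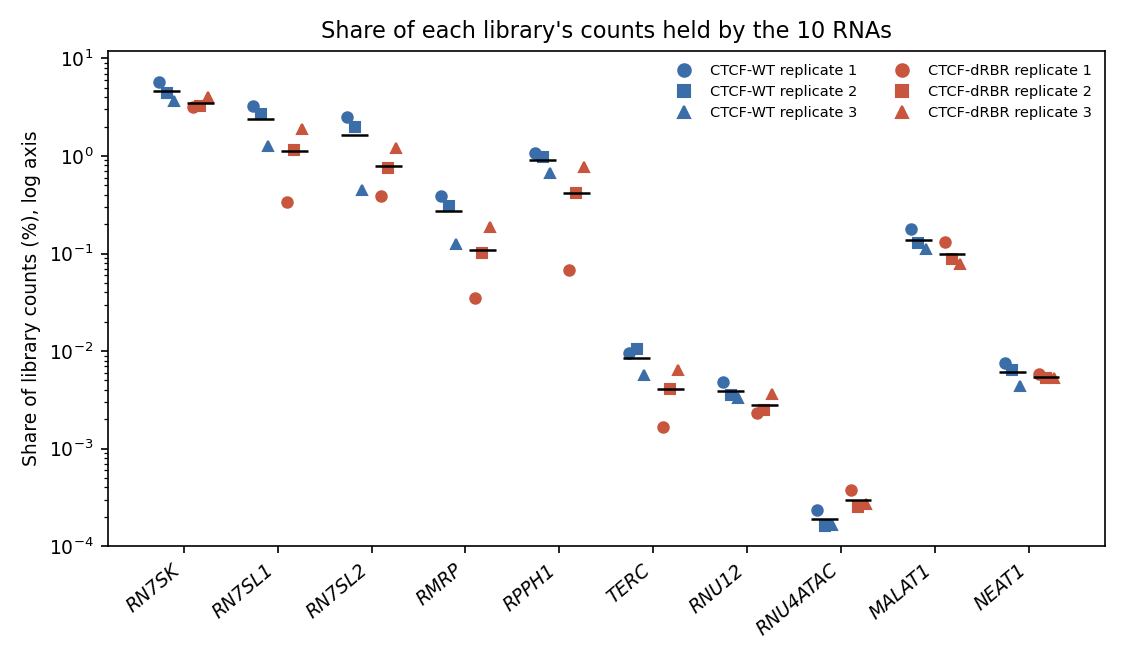
Points are the percent of a library's counts held by each RNA (log axis), blue for CTCF-WT and red for CTCF-dRBR, with symbols for replicates and black lines for group means (n = 3). RNU4ATAC alone has no overlap between its groups, and for RN7SK, RN7SL1, RMRP and RPPH1 CTCF-dRBR replicate 1 is lowest and CTCF-WT replicate 1 highest.

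RN7SK, the RNA that restrains P-TEFb, was the most even of the RNA polymerase III transcripts. It took 5.77%, 4.45% and 3.67% of counts in CTCF-WT and 3.20%, 3.25% and 4.01% in CTCF-dRBR. The highest library was 1.81 times the lowest, against 9.66 for RN7SL1 and 15.6 for RPPH1, and CTCF-dRBR replicate 3 lay above CTCF-WT replicate 3. The log2 fold change was -0.46 ± 0.21 (SE; limma-voom adjusted p = 0.216). It was -0.27 without CTCF-WT replicate 1, and it turned to 0.10 once each library's trend with GC content was removed (adjusted p = 0.802). In TPM the spread was smaller still, from 13.6% to 16.5% of a library. The 298 annotated RN7SK copies summed to 0.0282% to 0.0515% of the counts of RN7SK itself, so nearly all reads of this family were assigned to a single gene.

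Over the 6 libraries, the pattern of each gene was compared with that of RN7SK by root mean square difference of centered, TMM-scaled log2 CPM. The nearest genes were DOK2 (0.067), HEXIM1 (0.082) and HEBP1 (0.082), where RN7SK itself varied by 0.343 around its mean. HEXIM1 is the inhibitor of P-TEFb that binds RN7SK, and it was also in the list of 7SK partners described further on. For MALAT1 (0.445 around its mean) the nearest were HNRNPA3 (0.098), HNRNPA2B1 (0.11) and the pseudogene YBX1P1 (0.119). These are descriptions over libraries that share depth and base composition.

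The RN7SL genes, which make the SRP RNA, varied far more. RN7SL1 took 3.27%, 2.72% and 1.26% of counts in CTCF-WT and 0.339%, 1.17% and 1.91% in CTCF-dRBR, and RN7SL2 took 2.51%, 1.96% and 0.450% against 0.385%, 0.762% and 1.22%. Both were highest in CTCF-WT replicates 1 and 2, and the groups overlapped. The log2 fold changes were -1.37 ± 0.69 for RN7SL1 (adjusted p = 0.234) and -0.95 ± 0.74 for RN7SL2 (adjusted p = 0.386, both limma-voom with SE). Leaving out CTCF-dRBR replicate 1 brought RN7SL1 to -0.68 and RN7SL2 to -0.53. Leaving out CTCF-WT replicate 3 gave -1.83 and -1.76 instead, and removing each library's GC trend gave -0.55 and -0.14.

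RN7SL1 and RN7SL2 are near-identical copies, so how counts were divided between them is uncertain. The ratio of RN7SL1 to RN7SL2 counts was 1.304, 1.38 and 2.79 in CTCF-WT and 0.879, 1.53 and 1.57 in CTCF-dRBR (exact permutation p = 0.6), so the split itself moved by library. The sum of the pair does not depend on it, and was 5.78%, 4.68% and 1.71% of counts in CTCF-WT against 0.723%, 1.93% and 3.13% in CTCF-dRBR (exact permutation p = 0.3). Relative to RN7SK, the summed 7SL counts were 1.00, 1.05 and 0.465 in CTCF-WT and 0.226, 0.592 and 0.780 in CTCF-dRBR (exact permutation p = 0.3), so the RNAs did not keep 1 proportion across libraries. The 861 annotated RN7SL copies together gave 0.0913% to 0.247% of the counts of the pair.

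RPPH1 and RMRP, the RNAs of RNase P and RNase MRP, had the largest negative fold changes of the 10 by limma-voom on all libraries, an order that did not hold without CTCF-dRBR replicate 1, with the GC trend removed or with quality weights. RPPH1 took 1.07%, 0.976% and 0.665% of counts in CTCF-WT and 0.0684%, 0.416% and 0.778% in CTCF-dRBR. CTCF-dRBR replicate 1 stood far below the rest, and replicate 3 lay within the CTCF-WT range. The log2 fold change was -1.73 ± 0.85 (adjusted p = 0.230, limma-voom with SE), and -0.73 without CTCF-dRBR replicate 1. RPPH1 was also the single member called by limma-trend on log2(TPM + 0.1), at -1.37 (adjusted p = 0.0336). That fit called 5.29% of all genes. Its standard errors were nearly alike for the 10 RNAs, from 0.41 (RN7SK) to 0.44 (RNU12). The p-value thus hardly reflects the spread of RPPH1 itself. RPPH1 was at 30058, 30627 and 26133 TPM in CTCF-WT and 3056, 17233 and 26557 in CTCF-dRBR, and these groups overlapped.

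RMRP took 0.385%, 0.309% and 0.127% of counts in CTCF-WT and 0.0352%, 0.102% and 0.189% in CTCF-dRBR. For RMRP the log2 fold change was -1.56 ± 0.69 (adjusted p = 0.210, limma-voom with SE). That value was -0.92 when CTCF-dRBR replicate 1 was left out and -0.73 after GC correction, against -1.09 for RPPH1 in that fit. The 2 RNAs share most of their proteins, and the ratio of RPPH1 to RMRP counts was 2.77, 3.16 and 5.26 in CTCF-WT and 1.94, 4.07 and 4.12 in CTCF-dRBR, with no difference detected (exact permutation p = 0.9).

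TERC, the telomerase RNA, was at 95.1, 104 and 56.9 CPM without TMM scaling in CTCF-WT and 16.6, 40.7 and 64.5 in CTCF-dRBR. The 95% exact binomial interval of the lowest value was 15.2 to 18.1 CPM, on 498 counts, so counting error was small beside the spread between libraries. The log2 fold change was -1.22 ± 0.48 (limma-voom adjusted p = 0.189). It was -0.78 when CTCF-dRBR replicate 1 was left out, and -0.34 after GC correction. In TPM the CTCF-WT libraries, at 154, 194 and 143, all lay above the CTCF-dRBR libraries, at 49.3, 111 and 141, by a narrow margin, and the exact permutation p was 0.1, the smallest possible. TERC had the highest GC content of the 10 over the sequences used here.

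The minor spliceosomal RNAs had fold changes of both signs. RNU12 was at 48.5, 35.8 and 32.8 CPM without TMM scaling in CTCF-WT and 23.0, 25.0 and 36.4 in CTCF-dRBR, with a log2 fold change of -0.53 ± 0.25 (limma-voom adjusted p = 0.221) that was -0.35 without CTCF-WT replicate 1. RNU4ATAC was at 2.36, 1.62 and 1.66 in CTCF-WT and 3.80, 2.51 and 2.695 in CTCF-dRBR, or 0.57 ± 0.27 as log2 fold change (limma-voom adjusted p = 0.220). RNU4ATAC rested on 86 to 136 counts a library, and the 95% exact binomial interval of CTCF-WT replicate 1 (1.96 to 2.81 CPM) overlapped that of CTCF-dRBR replicate 2 (2.09 to 3.00). Such intervals cover counting error only. In share of counts all 3 CTCF-dRBR libraries lay above all 3 CTCF-WT libraries (exact permutation p = 0.1), but with TMM scaling and in TPM the groups overlapped. RNU12 was at 1301, 935 and 827 TPM in CTCF-WT and 642, 634 and 820 in CTCF-dRBR, apart by a narrow margin (exact permutation p = 0.1). The mean TPM weight of 1 RNU12 count was 98.9 in CTCF-WT and 63.9 in CTCF-dRBR, and in share of counts its groups overlapped.

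Their partner RNAs were read beside them. RNU11, which pairs with RNU12 in the minor spliceosome, had 24.7, 20.5 and 28.4 TMM-scaled CPM in CTCF-WT and 27.5, 29.5 and 33.0 in CTCF-dRBR (log2 fold change 0.31 ± 0.16, limma-voom adjusted p = 0.238). The ratio of RNU12 to RNU11 counts was 2.11, 1.81 and 1.13 in CTCF-WT and 0.842, 0.805 and 1.08 in CTCF-dRBR, without overlap (exact permutation p = 0.1, the smallest possible). It was 1 of 5 ratios compared, all chosen after values were seen. RNU6ATAC, which pairs with RNU4ATAC and was likewise named after its values were seen, had a log2 fold change of -1.46 ± 0.64 (limma-voom adjusted p = 0.21).

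The long nuclear RNAs MALAT1 and NEAT1 are neighbors on chromosome 11. MALAT1 took 0.178%, 0.129% and 0.110% of counts in CTCF-WT and 0.131%, 0.0873% and 0.0785% in CTCF-dRBR, with a log2 fold change of -0.57 ± 0.28 on counts (limma-voom adjusted p = 0.229) whose sign turned in TPM, as given above. NEAT1 was at 81.4, 65.7 and 43.1 TMM-scaled CPM in CTCF-WT and 58.8, 49.9 and 51.4 in CTCF-dRBR, with all CTCF-dRBR values inside the CTCF-WT range. For NEAT1 the log2 fold change was -0.21 ± 0.24 (limma-voom adjusted p = 0.542), with -0.02 when CTCF-WT replicate 1 was left out and -0.47 when CTCF-WT replicate 3 was. For MALAT1 it was -0.36 without CTCF-WT replicate 1. The ratio of MALAT1 to NEAT1 counts was 23.4, 20.3 and 24.9 in CTCF-WT and 22.3, 16.6 and 15.0 in CTCF-dRBR (exact permutation p = 0.2). Removing the GC trend left both negative, at -0.80 and -0.36.

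**Figure D4:**
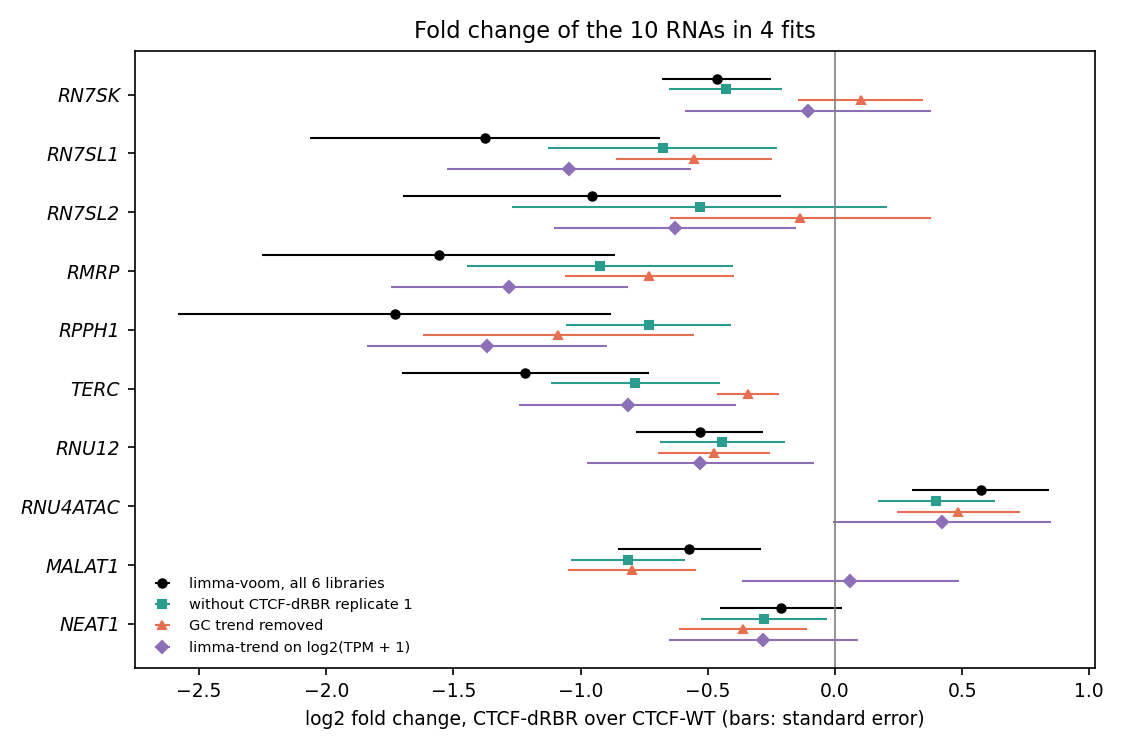
Points are the log2 fold change of CTCF-dRBR over CTCF-WT and bars its standard error, for each RNA in 4 fits: limma-voom on all 6 libraries, without CTCF-dRBR replicate 1, with the GC trend removed, and limma-trend on log2(TPM + 1). Values on all libraries run from -1.73 (RPPH1) to 0.57 (RNU4ATAC), and the sign turns for RN7SK with the GC trend removed (0.10) and for MALAT1 in TPM (0.06).

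The threshold call changed with how libraries were weighted. When limma estimated a quality weight for each library, all 10 RNAs passed an adjusted p of 0.05 (0.000503 for TERC to 0.0297 for RNU4ATAC), but so did 68.2% of all genes. Those weights were 0.0969 for CTCF-dRBR replicate 1, 0.472 for replicate 3 and 6.19 for replicate 2, and 1.26, 5.65 and 0.496 for CTCF-WT replicates 1 to 3, so that fit rested mainly on 1 library of each group. Under edgeR's quasi-likelihood test and DESeq2, 0 of the 10 passed, where DESeq2 called 1619 genes, 11.5% of those tested.

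The genes for proteins that bind or make these RNAs, and other structural RNAs, were examined by lists. Of 104 list genes tested, 0 passed an adjusted p of 0.05 by limma-voom or edgeR and 19 by DESeq2 (background 11.5%), SRPR, DKC1 and POLR3A among them. In refits with limma, 14 passed with the GC trend removed, where 1213 of all 13656 genes did. Without CTCF-dRBR replicate 1, 7 of 103 passed, where 535 of 13731 genes did, and 80 passed with quality weights (background 68.2%). On either TPM scale 4 passed, where 830 of 14042 genes did on log2(TPM + 1) and 743 on log2(TPM + 0.1). By limma-voom on all libraries, 35 had an unadjusted p under 0.05 (background 25.4%). The counts without overlap that follow are to be read against 20.0% of all genes higher and 17.5% lower. All CPM of list genes given here and in the list paragraphs below are TMM-scaled. Of 7 genes of the 7SK particle and P-TEFb, 2 were lower in CTCF-dRBR without overlap and 0 higher, with a median log2 fold change of -0.38. These were MEPCE, the enzyme that caps RN7SK, with 80.1, 75.1 and 54.6 CPM in CTCF-WT and 19.1, 39.2 and 48.0 in CTCF-dRBR (log2 fold change -0.996 ± 0.33, adjusted p = 0.160), and HEXIM2 (-1.03 ± 0.36, adjusted p = 0.166). HEXIM1 was at -0.48 and LARP7, which holds the end of RN7SK, at 0.35, both with overlapping groups.

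Of 8 genes for SRP proteins and the SRP receptor, 3 were lower without overlap and 0 higher, and the median log2 fold change was -0.03. SRPR, the receptor subunit that meets SRP at the membrane, had 113, 122 and 105 CPM in CTCF-WT and 59.3, 58.5 and 59.5 in CTCF-dRBR (log2 fold change -0.93 ± 0.10), and these groups were far apart. Its adjusted p was 0.0959, the smallest reached, which many other genes shared. SRP68, which binds 7SL, was at -0.59 ± 0.11 (limma-voom adjusted p = 0.0959). SRP54, which binds the signal peptide, was at 0.40 with overlapping groups. The spread within groups was thus much smaller for SRPR and SRP68 than for RN7SL1 and RN7SL2.

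Of 11 proteins of RNase P and RNase MRP, 5 were lower without overlap (background 17.5%) and 0 higher (background 20.0%), with a median log2 fold change of -0.23. The 5 included POP7 (-1.13 ± 0.29), RPP21 (-1.34 ± 0.35) and the large scaffold POP1 (-0.32 ± 0.09). Of 8 telomerase proteins, 4 were lower and 0 higher (median -0.56). DKC1, the dyskerin that binds TERC, had 166, 151 and 166 CPM in CTCF-WT and 110, 118 and 122.96 in CTCF-dRBR (-0.46 ± 0.09, limma-voom adjusted p = 0.108), and its partner NHP2 was at -0.96 ± 0.19 with the same adjusted p. TERT, the reverse transcriptase, had 8.31, 9.37 and 6.72 CPM against 2.14, 6.44 and 9.61, so that 1 CTCF-dRBR library lay above and 1 far below the CTCF-WT range (-0.60 ± 0.51).

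Of 12 minor spliceosome proteins 3 were higher and 3 lower without overlap (median 0.09). RNPC3, which bridges U11 and U12, was higher in all 3 CTCF-dRBR libraries (0.40 ± 0.15), where RNU12 itself had -0.53, and ARMC7 was lower in all 3 (-1.01 ± 0.24). Of 8 paraspeckle proteins 1 was higher and 4 lower (median -0.19). TARDBP was at -0.43, SFPQ at 0.22 and NONO, the core paraspeckle protein, at -0.01. Of 31 genes for RNA polymerase III and its factors 3 were higher (background 20.0%) and 12 lower without overlap (background 17.5%, median log2 fold change -0.31), with POLR3A, the largest subunit, at -0.59 ± 0.12 and POLR3K at -1.04 ± 0.24 (limma-voom adjusted p = 0.108 and 0.119).

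Of 31 other structural RNAs 19 reached the level needed for testing, 3 of them higher and 2 lower without overlap (median -0.20). RNU5B-1, a U5 RNA of the major spliceosome, had 25.3, 24.4 and 37.1 CPM in CTCF-WT and 167, 45.3 and 74.9 in CTCF-dRBR (1.50 ± 0.49, limma-voom adjusted p = 0.158), its highest value being in CTCF-dRBR replicate 1, where RPPH1 and RN7SL1 had their lowest. RN7SL3, a further RN7SL gene, was at -0.97 ± 0.29 (limma-voom adjusted p = 0.148) at 0.888 to 2.74 CPM. The structural RNAs beyond the 10 thus lay on both sides of 0.

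**Figure D5:**
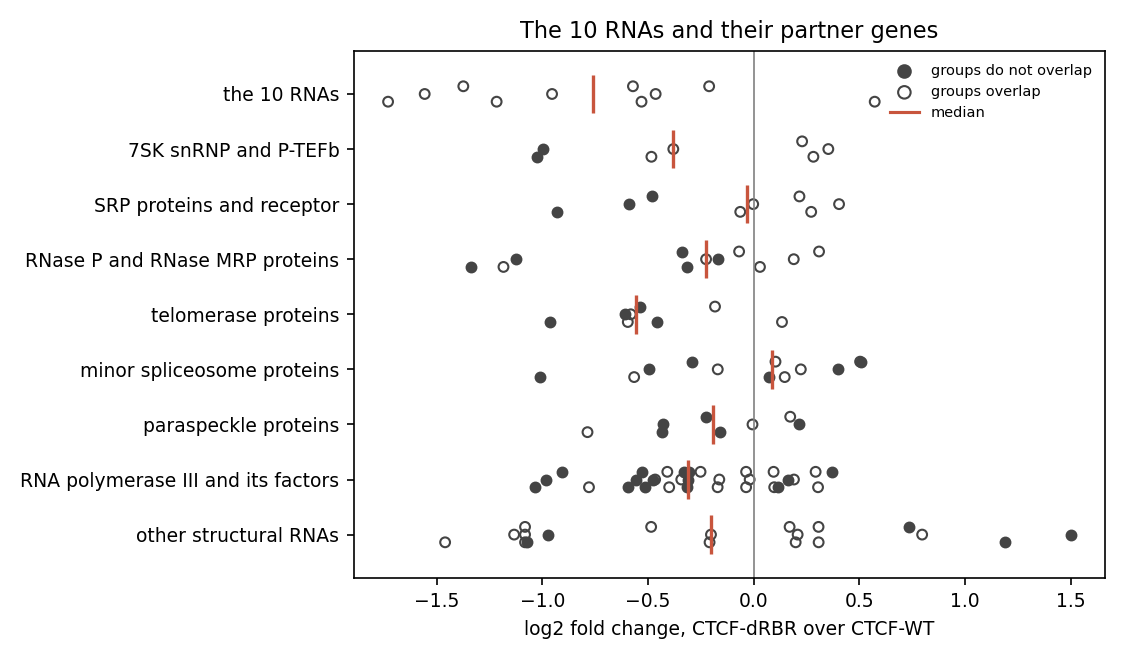
Each point is the log2 fold change of CTCF-dRBR over CTCF-WT of 1 tested gene, by list, with the list median as a red line. Filled points have no overlap in TMM-scaled CPM between the 3 CTCF-WT and 3 CTCF-dRBR libraries. All 10 points of the 10 RNAs are open, with a median of -0.76, and the list medians run from -0.56 for telomerase proteins to 0.09 for minor spliceosome proteins.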

How the data were processed

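RNA of SEM cells was ribosomal RNA-depleted (Kapa RNA HyperPrep with RiboErase) and sequenced. The labels give single-end and the methods paired-end reads. Per the labels and the study's methods, the authors trimmed reads (Trim Galore 0.6.3), aligned them to hg19 (STAR 2.7.9a) and quantified Gencode 19 genes (RSEM 1.3.1), and deposited expected counts, which share out reads that fit several genes by estimate, and TPM values, which scale counts by effective length to a fixed sum. The deposited tables also list 92 spike-ins, which were left out. The 10 RNAs and all gene lists were chosen with earlier results of these data known.

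Coordinates and sequences come from GRCh37 with Gencode 44 lifted to it and RefSeq lengths. By gene ID or symbol 9 RNAs matched, and RN7SL1 was placed by sequence. Genes under 1 CPM in all libraries were dropped, and TMM factors, limma-voom (limma 3.58.1, edgeR 4.0.16) and Benjamini-Hochberg adjustment over 14044 genes were applied, as in the study's methods, with group as the sole term. Shares and ratios were compared by exact two-sided permutation tests (scipy 1.17.1), 20 of them for single RNAs. No correction over the RNAs alone was made. Totals of 30034505 to 53166735 expected counts make a floor of 3 counts 0.0564 to 0.0999 CPM. Alternatives were edgeR's quasi-likelihood test and DESeq2 1.42.0 on rounded counts, other scalings and filters, TPM fits, quality weights, a replicate block, a loess GC correction within libraries and leaving out each library. The scripts were tested on simulated data.

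Named list genes were the 2 of each list with the smallest unadjusted p, beside LARP7, MEPCE, HEXIM1, SRP54, POP1, TERT, DKC1, RNPC3, NONO, SFPQ and RNU11. A gene named by this rule and some sequences are not reported here. The TPM carried by a count was compared with protein-coding genes of at least 1000 counts and 5 TPM in every library. No 2 libraries of the same group agreed within sampling noise, and pairs across the groups were not compared.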

Additional observations from a re-analysis of the deposited data

How the results depend on the processing

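Of 190 member fold changes under 19 alternatives, 176 kept their sign and side of the threshold, 11 passed it and 3 changed sign. With the GC trend removed RN7SK was at 0.10, and MALAT1 was at 0.061 on both log2(TPM + 1) and log2(TPM + 0.1). The number of members past the threshold, 0 by limma-voom, was 10 with quality weights (68.2% of all genes) and 1 on log2(TPM + 0.1) (5.29% of all genes). It was 0 under the other 17 alternatives, each left-out library included. Of these, DESeq2 called 1619 of 14045 genes, the fit with the GC trend removed 1213 of 13656 and log2(TPM + 1) 830 of 14042. Leaving out CTCF-dRBR replicate 1 gave 535 of 13731 genes, and the rescaled TPM below 28 of 14042. The rest called no gene at all. On TPM rescaled without the 8 short members, an alternative added after the data were seen, 0 passed.

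Leaving out each library in turn gave differences in count share of -5.83 to -2.37 percentage points and in TPM share of -14.6 to -6.63. Against protein-coding genes and members alone, the TPM difference was -15.3 points. The fold changes of RN7SL1, RPPH1, RMRP and TERC shrank by over 1.5 times without CTCF-dRBR replicate 1, at -0.68, -0.73, -0.92 and -0.78, and those of RN7SL2 were -0.53 without it, -0.46 without CTCF-WT replicate 1 and -1.76 without CTCF-WT replicate 3. Without CTCF-WT replicate 1, RN7SK was at -0.27, MALAT1 at -0.36, RNU12 at -0.35 and NEAT1 at -0.02, and NEAT1 was at -0.47 without CTCF-WT replicate 3. The cause was not tested. Same-numbered libraries had correlations of deviations from their group means of -0.34, 0.099 and -0.47. Such deviations sum to 0 within a group, so these values cannot show whether the numbers pair the libraries. With a replicate block 0 members passed (1423 genes at an unadjusted limma-voom p under 0.05, against 3569 without).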
